A study of Homo sapiens with 6 samples.

Results

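Long noncoding RNAs (lncRNAs) with at least 200 reads in every library were followed in SK-BR-3, an established HER2-positive breast cancer cell line, after GRB2 was lowered with an siRNA. They were chosen by gene type and raw read count, with earlier results of these data known: rows of the count table typed lncRNA, outside chrM, chrX and chrY, with 200 or more raw reads in each of the 6 libraries. The rule used the level in both groups, so that these lncRNAs are well expressed is not a result. It found 207 of the 8144 lncRNA rows on the remaining chromosomes and of the 30327 rows in all. The control group, si_NC, was SK-BR-3 given a nontargeting siRNA (3 libraries), and the other group, si_GRB2, was SK-BR-3 given an siRNA against GRB2 (3 libraries). The descriptions of the libraries name si_GRB2, whereas their titles and genotype labels name GRB2 overexpression, and the groups are called here by the descriptions. Neither the labels nor the methods state whether the 3 libraries of a group came from separate cultures, so the p-values measure the spread between these libraries, which may be technical. A single cell line was used, and although the methods give a single siRNA sequence against GRB2, a supplementary list holds 3, and which was used for these libraries is not stated.

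An lncRNA is transcribed and usually spliced like an mRNA but codes for no known protein. Some act as the RNA itself, such as NEAT1, the scaffold of nuclear paraspeckles, or NORAD, which binds Pumilio proteins in the cytoplasm. Others are carriers: the introns of small nucleolar RNA (snoRNA) hosts release snoRNAs that guide the modification of ribosomal RNA, and the transcripts of miRNA hosts release miRNAs. Many more lie across a coding gene on the other strand, or start back to back with one, and are named after that neighbour.

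The target itself was lower in the libraries labelled si_GRB2. GRB2, an adaptor that couples receptor tyrosine kinases such as HER2 to RAS, had 124, 129.5 and 126 CPM in si_NC and 27.8, 28.1 and 29.6 CPM in si_GRB2, where CPM are counts scaled to library size with TMM factors. The groups did not overlap (log2 fold change -2.15 ± 0.04 (SE), adjusted p = 3.87e-15). Adjusted p-values here and below come from the quasi-likelihood test of edgeR, with the Benjamini-Hochberg method applied over the 15801 genes tested, and a gene that was called, rose or fell had one under 0.05. Between 24810378 and 28532480 reads per library were counted. Of the luminal and HER2 markers checked, ERBB2, GRB7, EPCAM and 4 keratins lay between 44.4 and 1332 FPKM in every library, while CDH1 was at 0 to 0.01 FPKM. All 7 separated the groups without overlap in FPKM, ERBB2 higher and the other 6 lower in si_GRB2. KRT18 went from 976 to 1096 FPKM in si_NC to 717 to 746 FPKM in si_GRB2, KRT8 from 673 to 727 FPKM to 535 to 549 FPKM, and EPCAM from 63.7 to 69.6 FPKM to 44.4 to 48.04 FPKM. ERBB2 went the other way, from 263 to 286 FPKM to 323 to 347 FPKM. Of the markers of mesenchymal cells, VIM and COL1A2 stayed at or under 0.04 FPKM and COL1A1 lay between 0.34 and 0.46 FPKM. CD68, another marker checked for other cells, lay between 0.32 and 0.53 FPKM. KRT5, a basal keratin, had 3.17 to 3.51 FPKM in si_NC and 1.60 to 1.81 FPKM in si_GRB2. The part of these marker differences in the values below was not tested. The libraries also differed within their groups in reads counted for lncRNAs that lie opposite to coding exons. These were fewest in si_NC_3 and most in si_NC_1 and si_GRB2_1, which is described with the antisense members. Without si_NC_3, 73 of the lncRNAs below were called, 55 of them among the 67 called with all libraries.

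Taken over all 207 lncRNAs, the change was small and ran both ways. In si_GRB2, 30 were higher and 37 were lower, which is 67 of 207 (32.4%), with a median log2 fold change of -0.01 over the members and 0.00 over all genes tested. Of all genes tested, 30.6% were called, 15.2% higher and 15.5% lower, so the members' share was near the background. The CPM of both groups did not overlap for 83 members (40.1%), against 42.3% of all genes tested. A DEG here had a fold change above 1.5 and an adjusted p under 0.01, and 1 member (0.483%), MIR1915HG, passed it, against 2.52% of all genes. Of the 2029 other lncRNA rows tested, which have fewer reads, 5.96% were called, and of protein-coding genes 35.8%. Of the members with at least 500 reads in every library 41.9% were called. The share over all genes tested, set beside the classes and lists below, is not matched for reads. In RNA from whole cultures, fewer cells with a transcript and less of it per cell cannot be told apart. Together the members held between 1.09% and 1.14% of the counted reads of each library.

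**Figure D1:**
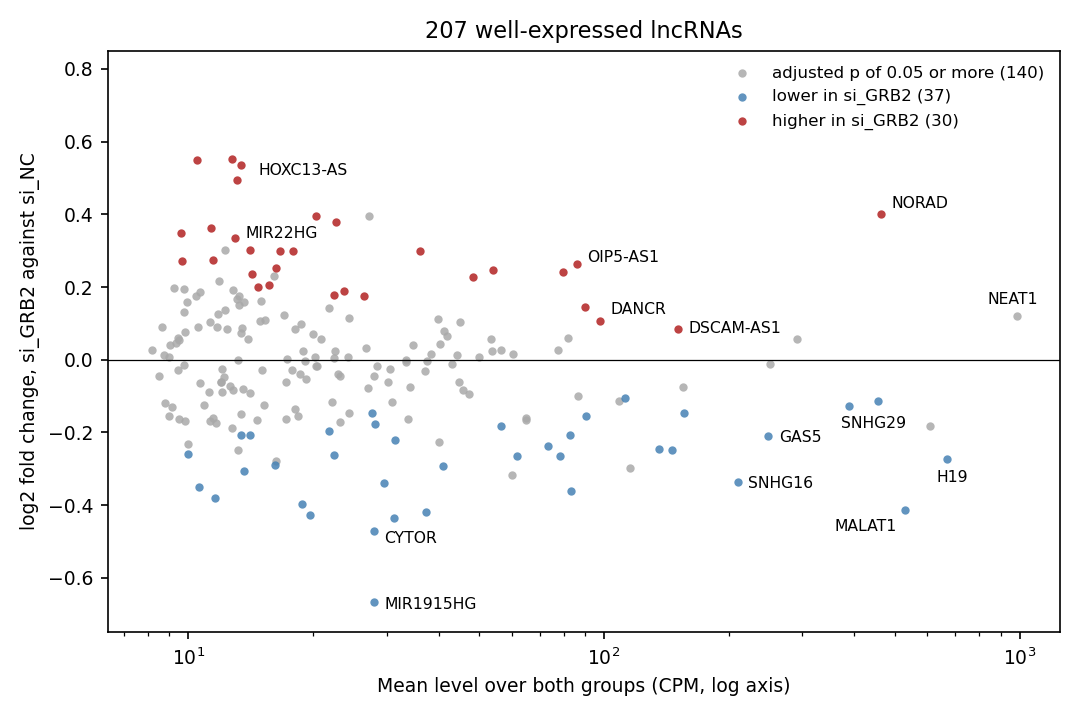
Log2 fold change of si_GRB2 against si_NC (vertical axis) against the mean level in CPM (horizontal log axis) for the 207 lncRNAs, 1 point each. The 30 higher and 37 lower members lie between -0.67 and 0.55, and MIR1915HG is the lowest point.

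The fold changes were of similar size in both directions. The 8 largest rises among called members without overlap lay between 1.29-fold and 1.47-fold, and the 8 largest falls between 1.28-fold and 1.59-fold. In every one of these 16 lncRNAs all si_GRB2 libraries lay on one side of all si_NC libraries.

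**Figure D2:**
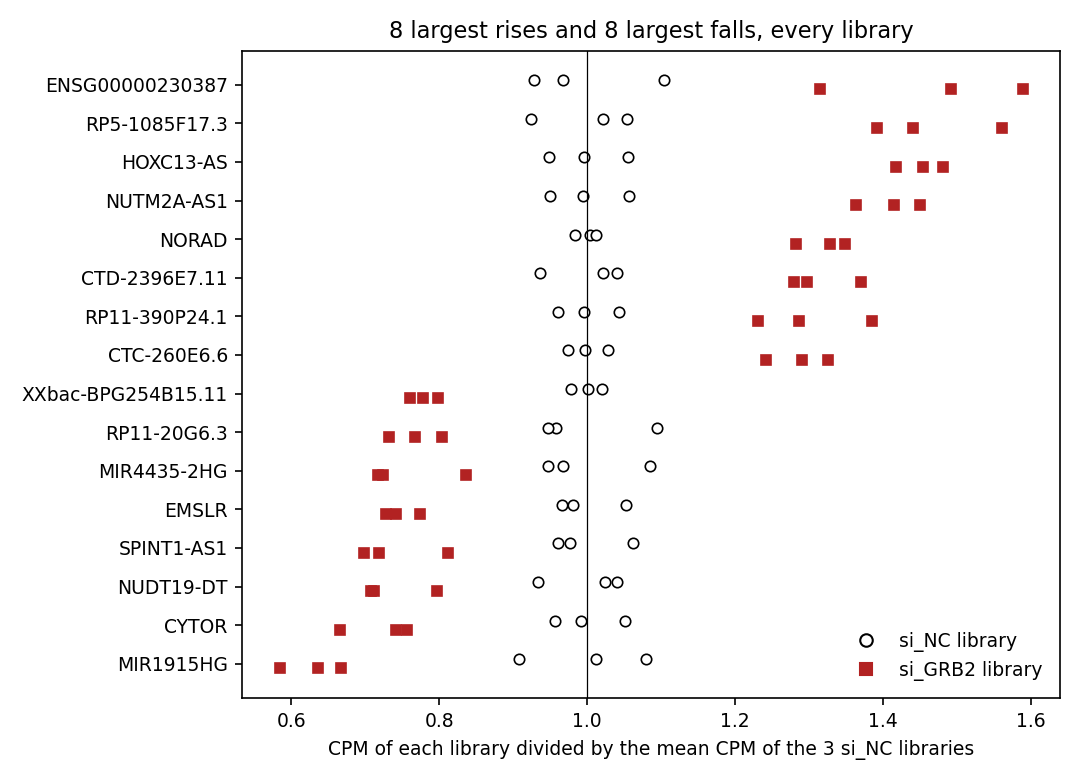
CPM of every library divided by the mean of the 3 si_NC libraries (horizontal axis) for the 8 largest rises and the 8 largest falls, with open circles for si_NC and filled squares for si_GRB2. The squares of the rises lie to the right of all circles of the same row, and those of the falls to the left.

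The 2 largest falls were in lncRNAs that carry miRNAs. By GENCODE 44, 17 members had a miRNA gene inside them on the same strand, of which 2 were higher, 5 were lower and 10 were not called (41.2% called against 30.6% of all genes tested, median log2 fold change 0.02). MIR1915HG (ENSG00000204682.8, chr10:21490272-21497260, minus strand of GRCh38), the host of miR-1915, had 31.2, 34.8 and 37.1 CPM in si_NC and 22.9, 21.8 and 20.1 CPM in si_GRB2. The si_GRB2 libraries were all lower, by 1.59-fold (log2 fold change -0.67 ± 0.07 (SE), adjusted p = 1.14e-06). CYTOR (ENSG00000222041.11, chr2:87454781-87636740, plus strand), named as a regulator of the cytoskeleton, had 32.2, 31.1 and 34.2 CPM in si_NC and 21.7, 24.6 and 24.1 CPM in si_GRB2, and the fall was 1.39-fold (log2 fold change -0.47 ± 0.06 (SE), adjusted p = 1.14e-05). MIR4435-2HG (ENSG00000172965.17, chr2:111006015-111523376, minus strand) had 20.3, 23.2 and 20.7 CPM in si_NC and 17.9, 15.3 and 15.5 CPM in si_GRB2, again with no overlap (log2 fold change -0.40 ± 0.07 (SE), adjusted p = 5.44e-04). CYTOR and MIR4435-2HG hold nearly identical sequence: their best-matching transcripts are 99.1% identical over 6657 aligned bases, and both hold a gene of the same miRNA. The methods state that genes were counted from uniquely mapped reads, so reads that fit both genes equally well were not counted. Each of these rows rests on reads that could be placed in 1 gene only.

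The mature miRNAs of the called hosts are shown because their genes make these lncRNAs hosts. They are from RefSeq (GRCh38.p14), with the seed, bases 2 to 8, in capitals. The host rows count reads of the long transcript and not the mature miRNAs, which were not measured. The miRNAs of PVT1 are not printed.

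miR-1915-3p, in MIR1915HG: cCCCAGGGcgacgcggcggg
miR-1915-5p, in MIR1915HG: aCCUUGCCuugcugcccgggcc
miR-4435, in CYTOR and MIR4435-2HG: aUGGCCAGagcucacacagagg
miR-675-5p, in H19: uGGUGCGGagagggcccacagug
miR-675-3p, in H19: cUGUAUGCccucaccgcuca
miR-22-3p, in MIR22HG: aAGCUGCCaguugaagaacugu
miR-22-5p, in MIR22HG: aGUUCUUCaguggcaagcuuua
miR-4449, in DANCR: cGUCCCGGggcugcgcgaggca

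Among these only the miR-4435 copies share a seed. H19 (ENSG00000130600.19, chr11:1995166-2004552, minus strand), an imprinted lncRNA that is high in the fetus, was one of the most abundant members, with 203 ± 20.7 FPKM in si_NC and 173 ± 27.01 FPKM in si_GRB2 (SD, n = 3). It had 668, 773 and 756 CPM in si_NC and 527, 684 and 605 CPM in si_GRB2. One si_GRB2 library lay above the lowest si_NC library, so the groups overlapped although the test called the fall (log2 fold change -0.27 ± 0.07 (SE), adjusted p = 0.00522). The call was lost in 5 of 16 refits, with DESeq2, the robust fit and the 3 limma fits on FPKM. PVT1, the lncRNA beside MYC, had 17.5 to 18.2 CPM in si_NC and 13.9 to 15.02 CPM in si_GRB2 with no overlap (log2 fold change -0.29 ± 0.06 (SE), adjusted p = 0.00200). MIR22HG, the host of miR-22, rose, with 12.2, 10.6 and 11.5 CPM in si_NC and 14.6, 13.9 and 14.8 CPM in si_GRB2 (log2 fold change 0.34 ± 0.08 (SE), adjusted p = 0.00265). MIR34AHG, a p53-responsive host, had 13.1 to 14.1 CPM in si_NC and 13.7 to 14.9 CPM in si_GRB2 and was not called (log2 fold change 0.06, adjusted p = 0.592), nor were MIRLET7A1HG (log2 fold change -0.16, adjusted p = 0.167) and MIR23AHG (log2 fold change 0.00, adjusted p = 0.989).

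The hosts of snoRNAs were mostly lower. Of the 21 members with a snoRNA gene inside them on the same strand in GENCODE 44, 12 (57.1%) were lower, 1 was higher and 8 were not called, with a median log2 fold change of -0.13, against 15.5% lower and a median of 0.00 over all genes tested. Among members with at least 500 reads in every library, 10 of 18 hosts (55.6%) were lower, against 26 of all 93 (28.0%), hosts included. The falls were modest, none above 1.28-fold. SNHG16 had 234, 239 and 229 CPM in si_NC and 181, 190.1 and 184 CPM in si_GRB2, a fall of 1.26-fold (log2 fold change -0.34 ± 0.03 (SE), adjusted p = 3.60e-07). SNHG19 had 32.4, 33.1 and 33.7 CPM in si_NC and 25.2, 27.5 and 25.7 CPM in si_GRB2 (log2 fold change -0.34 ± 0.05 (SE), adjusted p = 6.90e-05). In both, every si_GRB2 library was below every si_NC library.

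SNHG8 had 86.2, 85.4 and 84.8 CPM in si_NC and 72.1, 70.4 and 71.2 CPM in si_GRB2 (log2 fold change -0.26 ± 0.03 (SE), adjusted p = 2.24e-05). ZFAS1, host of 3 snoRNAs and antisense to the start of ZNFX1, had 158, 160.4 and 156 CPM in si_NC and 136, 133 and 130.3 CPM in si_GRB2 (log2 fold change -0.25 ± 0.03 (SE), adjusted p = 1.26e-05). SNHG15 had 77.1 to 81.96 CPM in si_NC and 66.04 to 69.1 CPM in si_GRB2 (log2 fold change -0.24, adjusted p = 1.67e-04), and SNHG3, which shares its start region with RCC1, had 85.3 to 91.8 CPM in si_NC and 76.5 to 78.02 CPM in si_GRB2 (log2 fold change -0.21, adjusted p = 4.43e-04). SNHG29 fell by only 1.09-fold, with 401, 406 and 410.3 CPM in si_NC and 367, 373 and 376 CPM in si_GRB2 (log2 fold change -0.13 ± 0.02 (SE), adjusted p = 0.00105). Groups did not overlap in any of these. SNHG32 (log2 fold change -0.26, adjusted p = 0.00174) and XXbac-BPG254B15.11 (log2 fold change -0.36, adjusted p = 1.26e-06) lie on the same strand of the same locus on chromosome 6 and share exonic bases, so they are not separate observations. UBA6-AS1 (log2 fold change -0.21, adjusted p = 0.0353), EPB41L4A-AS1 (log2 fold change -0.15, adjusted p = 0.0268) and SNHG1 (log2 fold change -0.10, adjusted p = 0.0369) completed the 12. The call of SNHG1 was lost in 9 of 16 refits, 5 of them with 1 library left out. That of EPB41L4A-AS1 was also lost in 9 of 16, 3 of them with 1 library left out. Leaving out 1 library at a time gave 9 to 12 lower hosts.

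The exception was DANCR, an lncRNA named for holding back differentiation, with 95.99, 92.99 and 93.5 CPM in si_NC and 103, 101 and 100.3 CPM in si_GRB2. Its libraries were all higher in si_GRB2, by 1.08-fold (log2 fold change 0.11 ± 0.03 (SE), adjusted p = 0.0205). The call was lost when any of 4 libraries was left out. SNHG17 (log2 fold change -0.10, adjusted p = 0.0707), SNHG11 (log2 fold change -0.12, adjusted p = 0.106), SNHG7 (log2 fold change -0.08, adjusted p = 0.183), SNHG6 (log2 fold change -0.05, adjusted p = 0.532), SNHG12 (log2 fold change -0.01, adjusted p = 0.880), SNHG20 (log2 fold change 0.00, adjusted p = 0.977), SNHG4 (log2 fold change 0.03, adjusted p = 0.681) and RP11-186B7.4 (log2 fold change -0.02, adjusted p = 0.890) were not called.

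**Figure D3:**
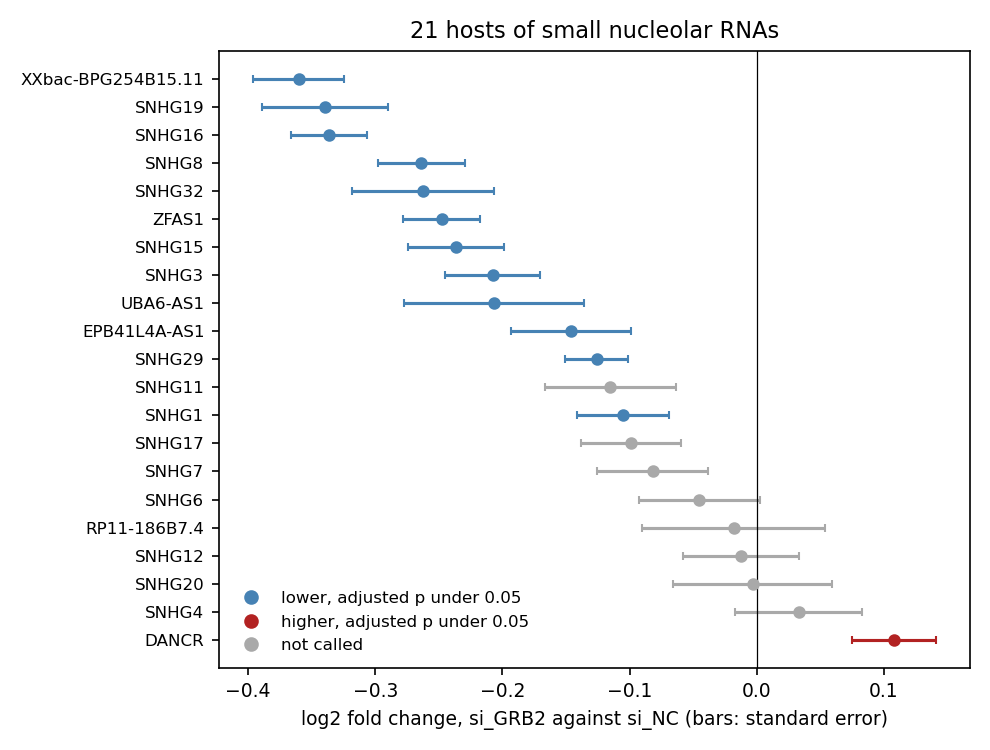
Log2 fold change of si_GRB2 against si_NC with its standard error (horizontal axis) for the 21 snoRNA hosts. The 12 lower hosts run from -0.36 to -0.10, DANCR alone is higher at 0.11, and the 8 grey hosts were not called.

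GAS5, a classical snoRNA host that rises when growth stops, is not in that count, since GENCODE 44 places no snoRNA gene in it and RefSeq places 11. It had 258, 274 and 268 CPM in si_NC and 229, 229 and 234 CPM in si_GRB2 with no overlap (log2 fold change -0.21 ± 0.03 (SE), adjusted p = 4.70e-05). Adding RefSeq's snoRNAs, whose table gives no strand, made 26 hosts, of which 14 were lower (53.8%, against 15.5% of all genes tested) and 1 was higher (3.85%, against 15.2%). The added hosts were GAS5, THAP9-AS1 (log2 fold change -0.18, adjusted p = 0.0218), AC010761.8, WARS2-AS1 and KB-1208A12.3, so some of these snoRNAs may lie on the strand of another gene. The call of THAP9-AS1 was lost in 6 of 16 refits, 2 of them with 1 library left out. Counted on FPKM with limma, the lower hosts numbered 4 to 7, where the counts gave 12. The share of all genes that was lower in those fits is not given here.

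Many snoRNA hosts, like ribosomal protein genes, start with a C followed by further pyrimidines, the 5′ terminal oligopyrimidine tract that ties translation to growth signals. The first bases of the RefSeq models (GRCh38.p14) are shown for the hosts with the longest such runs and for 4 without one at the annotated start, from 10 bases before the start to 20 bases within, with the run of C and T that begins with a C at the start in capitals.

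SNHG19 (chr16:2155339-2155368, minus strand): ccgcccctgtCTTTTCggggtcgagtccga
SNHG32 (chr6:31834906-31834935, plus strand): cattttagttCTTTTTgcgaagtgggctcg
ZFAS1 (chr20:49278632-49278661, plus strand): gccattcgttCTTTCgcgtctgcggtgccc
SNHG12 (chr1:28581854-28581883, minus strand): gcttcagcgcCCTTTCTCCCCgccgcattc
SNHG4 (chr5:139274091-139274120, plus strand): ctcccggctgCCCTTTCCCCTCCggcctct
SNHG16 (chr17:76557754-76557783, plus strand): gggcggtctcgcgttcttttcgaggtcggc
SNHG29 (chr17:16438977-16439006, plus strand): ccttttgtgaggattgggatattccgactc
GAS5 (chr1:173869026-173869055, minus strand): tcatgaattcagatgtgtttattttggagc
DANCR (chr4:52712384-52712413, plus strand): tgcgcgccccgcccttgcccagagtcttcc

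A run of at least 5 at the start was found in 5 of the 17 snoRNA hosts with a RefSeq promoter (29.4%), in the same 5 among the 85 members with one (5.88%), and in 1429 of 35116 promoters in all (4.07%). Of the 5 hosts with the run, 3 were lower (SNHG19, SNHG32 and ZFAS1) and 2 were not called (SNHG12 and SNHG4). Of the 12 without it, 7 were lower, 1 was higher and 4 were not called. Hosts that fell were found both with and without the run at the annotated start. The RefSeq start need not be the start used in SK-BR-3, and only runs that begin at its first base were counted. In SNHG16 and DANCR a run of at least 5 begins after the annotated start, and in SNHG29 one lies before it. Hosts not shown were affected too: in SNHG17 and SNHG11 such a run begins after the start, and in SNHG8 and SNHG7 one spans it. The bases shown of GAS5 hold none. The split into hosts with and without the run is therefore uncertain.

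The proteins that bind snoRNAs were measured in the same libraries. Of 16 genes for box C/D and box H/ACA particles, 7 were lower, 1 was higher and 8 were not called (median log2 fold change -0.07), against 15.5% lower and 15.2% higher over all genes tested. That background is not matched for reads, here and in the protein lists below. RUVBL1, an ATPase of particle assembly, had 82.5, 83.2 and 78.00 CPM in si_NC and 59.8, 61.1 and 60.1 CPM in si_GRB2 (log2 fold change -0.43 ± 0.04 (SE), adjusted p = 3.66e-07). NOLC1, a chaperone of these particles in the nucleolus, rose, with 110.0, 116 and 113 CPM in si_NC and 144, 145 and 154 CPM in si_GRB2 (log2 fold change 0.39 ± 0.03 (SE), adjusted p = 3.64e-07). The core proteins NOP58 (log2 fold change -0.18, adjusted p = 2.02e-04) and NOP56 (log2 fold change -0.12, adjusted p = 0.00212) were lower.

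Spliced snoRNA hosts are also substrates of nonsense-mediated decay. Of 18 decay factors, 2 were higher (11.1%, against 15.2% of all genes tested) and 6 lower (33.3%, against 15.5%). ETF1, a translation termination factor, was a DEG, with 167, 165 and 162 CPM in si_NC and 104, 107 and 110.1 CPM in si_GRB2 (log2 fold change -0.62 ± 0.03 (SE), adjusted p = 7.45e-10). SMG9 was lower (log2 fold change -0.36, adjusted p = 2.90e-06), as was EIF4A3 of the exon junction complex (log2 fold change -0.19, adjusted p = 2.35e-05), whereas CASC3 of the same complex was higher (log2 fold change 0.26, adjusted p = 5.91e-07). Of 18 genes of the nuclear RNA exosome and its adaptors, which degrade many noncoding transcripts, 1 was higher (5.56%) and 8 were lower (44.4%), against the same 15.2% and 15.5%. EXOSC3, a cap subunit, was a DEG with 22.00, 24.2 and 21.2 CPM in si_NC and 14.2, 12.9 and 15.4 CPM in si_GRB2 (log2 fold change -0.66 ± 0.07 (SE), adjusted p = 3.60e-06), and RBM7, an adaptor, was the 1 that rose (log2 fold change 0.37, adjusted p = 3.93e-05).

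NORAD gave the firmest rise. It is a single exon of 5401 bases (ENSG00000260032.2, chr20:36045618-36051018, minus strand) that shares no exonic base with another gene. It had 401, 404 and 392 CPM in si_NC and 512, 538 and 530.2 CPM in si_GRB2. Every si_GRB2 library was above every si_NC library, by 1.32-fold (log2 fold change 0.40 ± 0.03 (SE), adjusted p = 1.28e-08), and the rise was called in all 16 refits, between 0.38 and 0.44 on the log2 scale. On the scale per length it went from 59.4 ± 1.45 to 80.8 ± 4.30 FPKM (SD, n = 3).

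NORAD is known for its many binding elements of Pumilio. The densest pair in its transcript, whose starts are 9 bases apart, is shown with the 8-base element TGTANATA in capitals.

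NORAD (chr20:36049496-36049525, minus strand): tatctgTGTATATAgTGTACATAaaggaca

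The transcript held 15 matches of TGTANATA on its own strand, overlaps allowed. NEAT1 had the next highest count, 6 in a transcript more than 4 times as long, and 50 of the 206 member transcripts (24.3%) held any. A match is a sequence feature and not a measured binding site.

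The nuclear lncRNAs moved less clearly. MALAT1 (ENSG00000251562.8, chr11:65497640-65508073, plus strand), which gathers in nuclear speckles, had 531, 442 and 844 CPM in si_NC and 409.6, 505 and 450.3 CPM in si_GRB2. The si_NC libraries ranged widely, si_NC_3 stood above the other 5, and the groups overlapped (log2 fold change -0.41 ± 0.15 (SE), adjusted p = 0.0484). Without si_NC_3 the log2 fold change was -0.10, and 10 of the 16 refits did not call it. NEAT1 had 858, 910.4 and 1058 CPM in si_NC and 947, 1056 and 1067 CPM in si_GRB2, also overlapping, and was not called (log2 fold change 0.12 ± 0.06 (SE), adjusted p = 0.132). MALAT1 ends in a triple helix in place of a poly(A) tail, and these libraries were made from mRNA caught on beads. RMRP and RPPH1, which are not polyadenylated either and have too few reads to be members, had their highest si_NC value in si_NC_3: RMRP had 107, 101 and 212 reads in si_NC and 168, 230 and 162 reads in si_GRB2, and RPPH1 had 96, 112 and 171 reads in si_NC and 141, 215 and 137 reads in si_GRB2. By GENCODE 44, 83.7% of the exonic bases of MALAT1 also lie across a gene on the other strand. The part of either in the values of MALAT1 was not tested.

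Of 18 proteins of paraspeckles and nuclear speckles, 1 was higher, 10 were lower and 7 were not called (median log2 fold change -0.09), 55.6% lower against 15.5% of all genes tested and 5.56% higher against 15.2%. This background is not matched for reads, and small changes were called: SRSF2 was lower by only 1.06-fold. SRSF1, a splicing factor of the speckles, had 94.4, 95.9 and 91.9 CPM in si_NC and 76.5, 78.6 and 78.3 CPM in si_GRB2 (log2 fold change -0.27 ± 0.03 (SE), adjusted p = 1.74e-05), and RBM14, a paraspeckle protein, was lower by a similar amount (log2 fold change -0.28, adjusted p = 1.01e-04). The paraspeckle core proteins NONO (log2 fold change -0.11, adjusted p = 0.00372) and SFPQ (log2 fold change -0.13, adjusted p = 0.00309) also fell. METTL16, which binds the triple helix of MALAT1, was the 1 that rose (log2 fold change 0.21, adjusted p = 0.0332), with overlapping groups.

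Among members apart from coding genes more were higher than lower. Of 32 intergenic members, which overlap no coding gene, share no start region with one and host no small RNA, 11 (34.4%) were higher, 2 were lower and 19 were not called, with a median log2 fold change of 0.07, against 15.2% higher over all genes tested. NORAD is one of them. ENSG00000230387 (ENSG00000230387.4, chr20:23179272-23190419, plus strand) had 9.59, 10.01 and 11.4 CPM in si_NC and 15.4, 16.4 and 13.6 CPM in si_GRB2, 1.47-fold higher (log2 fold change 0.55 ± 0.09 (SE), adjusted p = 1.68e-04). RP5-1085F17.3 (ENSG00000260257.2, chr20:32856621-32858751, plus strand) had 8.99, 8.71 and 7.88 CPM in si_NC and 13.3, 11.9 and 12.3 CPM in si_GRB2, 1.46-fold higher (log2 fold change 0.55 ± 0.09 (SE), adjusted p = 1.38e-04). In both every si_GRB2 library was above every si_NC library.

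CRNDE, an lncRNA raised in several tumours, had 22.1, 21.1 and 23.3 CPM in si_NC and 24.7, 25.7 and 25.6 CPM in si_GRB2 (log2 fold change 0.19 ± 0.05 (SE), adjusted p = 0.0133). Its call was lost in 6 of 16 refits, 2 of them with 1 library left out. AB015752.3 rose (log2 fold change 0.30, adjusted p = 6.07e-05), as did LINC01963 (log2 fold change 0.35, adjusted p = 0.0110), which at 206 to 306 reads lies near the read limit. The call of LINC01963 was lost in 5 of 16 refits, 3 of them with 1 library left out. MALAT1 and CTD-2062A1.3 (log2 fold change -0.26, adjusted p = 0.0461) were the 2 that fell. The higher count depended on single libraries: without si_GRB2_2 it was 6, and without si_NC_2 or si_GRB2_3 it was 7. With DESeq2 it was also 6.

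Where lncRNAs start close to the start of a coding gene on the other strand, both were read side by side. Of 49 divergent members, whose start lies within 1000 bases of the start of a coding gene on the other strand, 5 were higher and 13 lower, 36.7% called against 30.6% of all genes tested. Distances are between the starts in either direction, so a member may overlap its gene. Of the genes paired with the 13, 2 fell, 2 rose, 8 were not called and 1 was not tested. Of those paired with the 5, 2 rose and 3 were not called. For comparison, 35.8% of all protein-coding genes tested were called. NUDT19-DT starts 57 bases from NUDT19, a hydrolase of coenzyme A, and had 36.9, 37.5 and 33.7 CPM in si_NC and 25.6, 28.7 and 25.5 CPM in si_GRB2 (log2 fold change -0.43 ± 0.06 (SE), adjusted p = 2.68e-05). NUDT19 fell with it, with 29.8, 29.3 and 27.5 CPM in si_NC and 22.5, 23.9 and 23.2 CPM in si_GRB2 (log2 fold change -0.31 ± 0.05 (SE), adjusted p = 2.26e-04), and neither overlapped.

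RP4-591C20.9 starts 935 bases from TPD52L2. The lncRNA had 11.1 to 12.3 CPM in si_NC and 9.02 to 9.76 CPM in si_GRB2 (log2 fold change -0.35, adjusted p = 0.00393) and TPD52L2 had 235 to 241 CPM in si_NC and 141 to 147 CPM in si_GRB2 (log2 fold change -0.73, adjusted p = 3.72e-11), the larger fall. OTUD6B-AS1, 387 bases from the deubiquitinase gene OTUD6B, rose with it (log2 fold change 0.25, adjusted p = 4.68e-04 and log2 fold change 0.21, adjusted p = 0.00264). SPINT1-AS1 went the other way from its neighbour: it had 21.7, 23.97 and 22.1 CPM in si_NC and 16.2, 18.3 and 15.8 CPM in si_GRB2 (log2 fold change -0.43 ± 0.07 (SE), adjusted p = 1.43e-04), whereas SPINT1, an inhibitor of serine proteases at the cell surface, had 595, 600.2 and 597 CPM in si_NC and 643, 646 and 613 CPM in si_GRB2 (log2 fold change 0.09 ± 0.03 (SE), adjusted p = 0.0168). SPINT1-AS1 overlaps SPINT1 and shares 100 exonic bases with it on the other strand. HOXC13-AS had 10.4, 10.9 and 11.6 CPM in si_NC and 16.2, 15.9 and 15.5 CPM in si_GRB2 (log2 fold change 0.54 ± 0.07 (SE), adjusted p = 2.54e-05), while HOXC13, a homeobox gene whose start is 812 bases from its start, had 55.05 to 61.4 CPM in si_NC and 50.8 to 56.2 CPM in si_GRB2 and was not called (log2 fold change -0.08, adjusted p = 0.297).

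The antisense members numbered 115, of which 11 were higher, 19 lower and 85 not called, 26.1% called against 30.6% of all genes tested. OIP5-AS1, a long-lived lncRNA also called cyrano, had 77.8, 80.8 and 75.97 CPM in si_NC and 87.8, 95.2 and 98.3 CPM in si_GRB2 (log2 fold change 0.26 ± 0.04 (SE), adjusted p = 2.02e-04). OIP5, the centromere protein gene it runs against, moved the other way and further, with 27.5, 30.9 and 29.8 CPM in si_NC and 17.6, 14.97 and 16.4 CPM in si_GRB2 (log2 fold change -0.85 ± 0.07 (SE), adjusted p = 7.44e-08). Neither pair of groups overlapped. EMSLR, 83.1% of whose exonic bases lie across IFT22, had 41.8, 44.9 and 41.2 CPM in si_NC and 31.03, 31.6 and 33.03 CPM in si_GRB2 (log2 fold change -0.42 ± 0.05 (SE), adjusted p = 5.65e-06), while IFT22 had 26.9 to 28.95 CPM in si_NC and 28.1 to 29.3 CPM in si_GRB2 and was not called (log2 fold change 0.05, adjusted p = 0.489). NUTM2A-AS1, which lies across NUTM2A, had 10.3 to 11.5 CPM in si_NC and 14.8 to 15.8 CPM in si_GRB2 (log2 fold change 0.49, adjusted p = 7.15e-05). CTD-2396E7.11 over DENND1C had 18.3, 16.4 and 17.9 CPM in si_NC and 22.5, 24.03 and 22.8 CPM in si_GRB2 (log2 fold change 0.39 ± 0.06 (SE), adjusted p = 9.31e-05) and DENND1C rose by about as much with a larger error (log2 fold change 0.41 ± 0.13 (SE), adjusted p = 0.0276). CTC-260E6.6 (log2 fold change 0.36, adjusted p = 0.00155) and RP11-390P24.1 (log2 fold change 0.38, adjusted p = 1.24e-04), the 1 member not found in GENCODE 44, were the other large rises. DSCAM-AS1, an lncRNA of luminal breast tumours that lies against DSCAM, had 143, 146 and 149 CPM in si_NC and 157, 156 and 151 CPM in si_GRB2 (log2 fold change 0.09 ± 0.03 (SE), adjusted p = 0.0442), a call lost in 13 of 16 refits, in cells where ESR1 was at 0.05 to 0.09 FPKM. FGD5-AS1 was not called (log2 fold change 0.06, adjusted p = 0.339).

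On the same strand as a coding gene lay 63 members, 8 of them higher and 9 lower, 27.0% called against 30.6% of all genes tested. RP11-20G6.3, all of whose exonic bases are shared with USP31, had 12.4 to 14.4 CPM in si_NC and 9.62 to 10.6 CPM in si_GRB2 (log2 fold change -0.38, adjusted p = 0.00213), and USP31 had 19.4 to 20.5 CPM in si_NC and 15.2 to 17.2 CPM in si_GRB2 (log2 fold change -0.28, adjusted p = 0.00324). RP11-793H13.8, whose bases are all shared with PCBP2, was not called (log2 fold change -0.07, adjusted p = 0.0626) and PCBP2 was lower (log2 fold change -0.15, adjusted p = 8.75e-04). Reads of such pairs can be counted for either gene, so the values of the lncRNA are uncertain.

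In the lncRNAs that lie across exons of highly expressed coding genes, the values varied from library to library within both groups. Of the 31 members with at least 50% of their exonic bases shared with a gene on the other strand, 3 were called (9.68%, against 30.6% of all genes tested), all lower. These 31 were taken whatever the type and level of that gene. MALAT1, which overlaps no coding gene, and EMSLR were among the 3, and IFT22 had fewer reads than EMSLR (means of 751 and 993). For 17 of the 31 the partner gene held at least 10 times the reads. RP5-940J5.9 (ENSG00000269968.1, chr12:6537794-6538370, minus strand), with 422 exonic bases all across GAPDH, had 805, 624 and 516 CPM in si_NC and 681, 494 and 541 CPM in si_GRB2. As a share of the reads of GAPDH these were 11.1%, 8.35% and 6.87% in the si_NC libraries and 9.81%, 7.27% and 7.95% in the si_GRB2 libraries. GAPDH itself lay between 6787 and 7512 CPM, a far narrower range, and the lncRNA was not called (log2 fold change -0.18 ± 0.12 (SE), adjusted p = 0.287).

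The same libraries were high and low in pair after pair. RP11-138I1.4, across the ubiquitin gene UBB, had 11.6%, 8.62% and 6.69% in the si_NC libraries and 9.85%, 7.19% and 7.99% in the si_GRB2 libraries. RP11-290D2.6, across TPT1, had 6.31%, 5.26% and 3.95% in the si_NC libraries and 6.18%, 4.69% and 5.02% in the si_GRB2 libraries. CTD-2256P15.4, across the chaperonin gene CCT5, had 6.10%, 5.29% and 1.98% in the si_NC libraries and 5.95%, 3.38% and 4.22% in the si_GRB2 libraries. In each of these si_NC_1 was the highest and si_NC_3 the lowest control, and si_GRB2_1 was the highest and si_GRB2_2 the lowest of the treated libraries. Over the 17 pairs, si_NC_1 was the highest of the controls in 16 and si_NC_3 the lowest in 16, and si_GRB2_1 was the highest treated library in 17 and si_GRB2_2 the lowest in 16. Their median share was 6.31%, 5.29% and 3.10% in si_NC_1 to si_NC_3 and 6.18%, 4.52% and 5.02% in si_GRB2_1 to si_GRB2_3. Over all 29 pairs with a coding partner of any level the order was less uniform. There si_NC_1 was highest in 22, and si_NC_3 was lowest in 20 but highest in 5. Of the treated libraries si_GRB2_1 was highest in 22 and si_GRB2_2 lowest in 21.

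**Figure D4:**
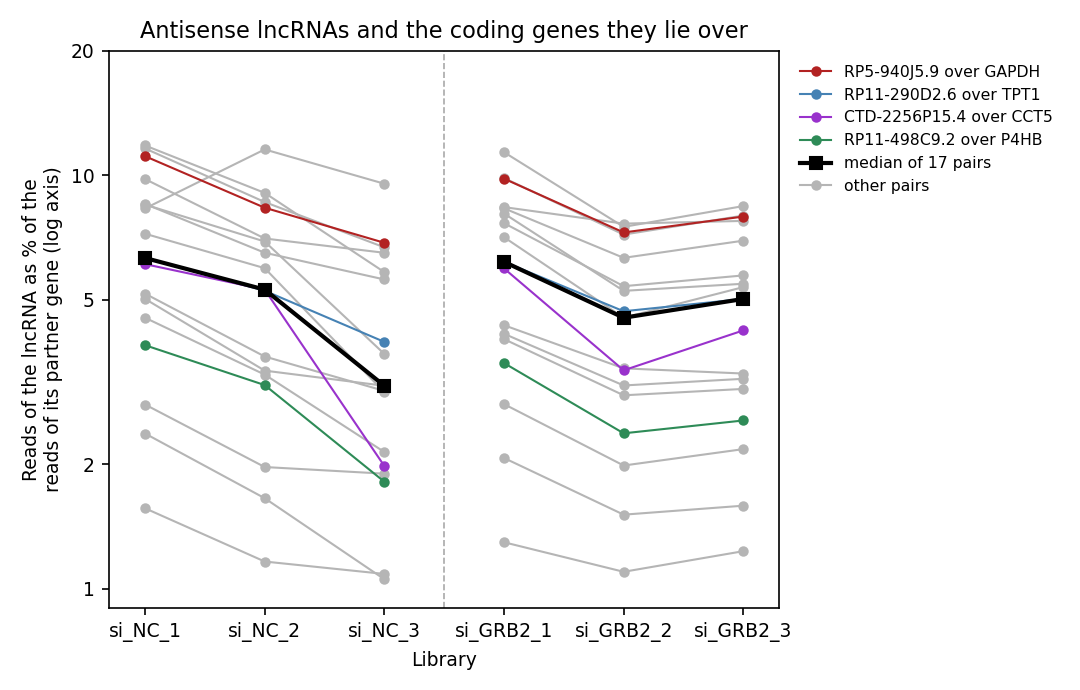
Reads of 17 antisense lncRNAs as a percentage of the reads of the coding gene whose exons they lie across (vertical log axis) in each library, with lines joining the libraries of a group for each pair and the median in black. The median lies between 3.10% in si_NC_3 and 6.31% in si_NC_1, and most pairs share the order of the libraries.

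The kit marks the strand by dUTP, and the strand setting of the counting is not given in the sources used here. How many of these reads came from the coding gene was not tested. The spread bears on the test: the within-group SD of log2 CPM was between 0.19 and 0.69 over the 17, against a median of 0.09 over all members, and none was called. The 3 most variable members were MAL2-AS1, CTD-2256P15.4 and KB-1208A12.3, all antisense. MAL2-AS1 had 33.7, 27.4 and 9.30 CPM in si_NC and 42.7, 23.8 and 26.1 CPM in si_GRB2, with a wide overlap (log2 fold change 0.40 ± 0.29 (SE), adjusted p = 0.340), and KB-1208A12.3, across RPL30, had 84.2, 61.4 and 34.05 CPM in si_NC and 78.1, 47.6 and 56.3 CPM in si_GRB2 (log2 fold change 0.02 ± 0.22 (SE), adjusted p = 0.970). Of the 23 members with an SD over 0.3, 21 were antisense and 1 was called. Without si_NC_3, CTD-2256P15.4 itself was called lower (log2 fold change -0.37, adjusted p = 0.0410, edgeR), against 0.00 with all libraries.

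The members that share no exonic base with any other gene numbered 42, of which 13 were higher, 9 were lower and 20 were not called, 52.4% called against 30.6% of all genes tested and 35.8% of protein-coding genes. MIR1915HG, NUDT19-DT, SNHG19, SNHG15, SNHG1, H19 and NORAD are among them. Leaving out the 31 members with 50% or more shared on the other strand left 175 (1 member has no gene model), with 29 higher and 34 lower, 36% called against the same 30.6%.

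Ordered by level per length, the top of the list was held by members that share exons with coding genes. CH17-66N5.1, whose 312 exonic bases are all shared with genes on the same strand, had 1220.3 ± 41.7 FPKM in si_NC and 1163 ± 28.8 FPKM in si_GRB2 (SD, n = 3), and RP5-940J5.9 across GAPDH had 1228 ± 236 FPKM in si_NC and 1118 ± 158 FPKM in si_GRB2 (SD, n = 3). These 2 did not differ beyond their spread. AC010761.8 across RPL23A followed with 223 ± 75.1 FPKM in si_NC and 229 ± 50.1 FPKM in si_GRB2 (SD, n = 3), then H19, RP11-290D2.6 with 153 ± 32.2 FPKM in si_NC and 146 ± 18.05 FPKM in si_GRB2 (SD, n = 3) and RP11-138I1.4 with 115 ± 25.1 FPKM in si_NC and 95.97 ± 13.4 FPKM in si_GRB2 (SD, n = 3). H19 is the only one of these 6 members above 100 FPKM that shares no exonic base. Below them RP11-793H13.8 (81.1 ± 2.87 FPKM in si_NC and 79.4 ± 2.66 FPKM in si_GRB2 (SD, n = 3)), SNHG19 (77.7 ± 4.37 FPKM in si_NC and 63.3 ± 4.48 FPKM in si_GRB2 (SD, n = 3)), NORAD and DSCAM-AS1 (66.3 ± 3.66 FPKM in si_NC and 72.5 ± 1.86 FPKM in si_GRB2 (SD, n = 3)) lay close together. The median member had 5.77 FPKM and the lowest 0.28. CH17-66N5.1 fell slightly in CPM, with 470.4 to 480.3 CPM in si_NC and 428 to 445 CPM in si_GRB2 (log2 fold change -0.11, adjusted p = 0.00282).

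Of 57 lncRNAs listed for a known role, 50 were tested and 30 were members, and of these 30, 6 were higher, 17 lower and 7 not called (76.7% called, against 30.6% of all genes tested). The list was drawn up with earlier results of these data known, and it overlaps the snoRNA hosts. TP53TG1, with 202, 173 and 215 reads in si_NC and 212, 234 and 251 reads in si_GRB2, missed the read limit in 1 library and was higher (log2 fold change 0.31, adjusted p = 0.0271). TUG1 has the reads but is typed as protein-coding in the table, so it is no member (log2 fold change 0.03, adjusted p = 0.633).

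At the limit itself, RP11-513I15.6 had 432, 288 and 203 reads in si_NC and 392, 262 and 281 reads in si_GRB2, and LINC01963 and CTD-2015H6.3 had a lowest count of 206. Just outside, RP11-352M15.2, RP11-2C24.4 and ENSG00000277534 each had a lowest count of 199. A limit set in every library leaves out lncRNAs that fell below it in 1 group. Of 58 lncRNA rows with a mean of at least 200 reads that missed it, 7 were higher and 6 lower, 22.4% called against 30.6% of all genes tested. A single row of these (1.72%, against 2.52% of all genes tested) was a DEG, AC068134.8, with 403, 271 and 331 reads in si_NC and 254, 161 and 176 reads in si_GRB2.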

How the data were processed

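RNA of SK-BR-3 cells given a control siRNA (si_NC, 3 libraries) or an siRNA against GRB2 (si_GRB2, 3 libraries) was captured as mRNA on beads and made into strand-specific dUTP libraries. The authors aligned the reads to GRCh38 with HISAT2, per the submitters' processing notes, and deposited raw counts per gene and FPKM (fragments per length of transcript and size of library). Both were computed from uniquely mapped reads, as the paper's methods state. The version of the aligner and the strand setting of the counting are not given in the sources used here. Counts of all 30327 rows were tested in R 4.3.3 with edgeR 4.0.16 (TMM factors, filterByExpr, quasi-likelihood test, two-sided, Benjamini-Hochberg over 15801 genes), after the code was tested on simulated data. FPKM served to compare levels between genes and in limma 3.58.1 on log2(FPKM + 1) and log2(FPKM + 0.1). DESeq2 1.42.0, other scaling factors, filters and read minimums, a replicate block, a robust fit and leaving out each library were the alternatives. A fold change above 1.5 with adjusted p under 0.01 made a DEG.

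Positions, overlaps and the snoRNA and miRNA genes that define hosts are from GENCODE 44. Mature miRNA and promoter sequences, and the snoRNAs of a widened host count added after seeing the data, are from RefSeq (GRCh38.p14). The 207 members and all lists were chosen with earlier results of these data known. Named by rule were DEGs, the 8 largest rises and 8 largest falls without overlap, the 8 highest in FPKM, members with a known role, the 3 members nearest the read limit on the inside and 3 rows on the outside, the 3 most variable members, partners of these, and for each protein list its DEGs or else the 2 smallest p. Other genes were named after their values were seen. Libraries of a group differed from each other by more than sampling noise (chi-square per degree of freedom 2.07 to 4.61).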

Additional observations from a re-analysis of the deposited data

How the results depend on the processing

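Of 876 refits of single named lncRNAs, 750 kept direction and call, 104 lost the call, 21 gained one and 1 reversed: CTD-2256P15.4 went from 0.00 on the log2 scale to between -0.37 (without si_NC replicate 3) and 0.31 (without si_NC replicate 1) when 1 library was left out. On FPKM with limma (pseudocounts 1 and 0.1, then 1 with a mean FPKM of at least 1) the lncRNAs called fell from 67 to 16, 21 and 42, those lower from 37 to 7, 7 and 17, the snoRNA hosts lower from 12 to 4, 4 and 7, the miRNA hosts called from 7 to 2, 2 and 3, antisense members from 30 to 7, 9 and 18, same-strand members from 17 to 3, 5 and 10, and DEGs from 1 to 0, 0 and 0. The first 2 of these settings also took the higher members from 30 to 9 and 14, divergent members from 18 to 4 and 6, intergenic risers from 11 to 3 and 4, and decay factors from 8 to 3 and 3, and all 3 took speckle proteins from 11 to 1, 1 and 2, snoRNA-binding proteins from 8 to 2, 2 and 2, and exosome genes from 9 to 2, 2 and 4. The share of all genes called in these 3 settings is not given here. These counts therefore do not show whether the lncRNAs and lists lost more calls than other genes. With DESeq2 49 lncRNAs were called, all among the 67, and 6 intergenic risers. Requiring 500 reads left 93 members, of which 39 were called (41.9%, against 30.6% of all genes tested) and 13 were higher. Of 11 intergenic members 4 were then higher. Called were 4 of 7 miRNA hosts, 18 of 52 antisense and 10 of 16 divergent members. Requiring 100 reads gave 29 of 115 divergent members called, and 6 DEGs among 419 members. A mean of 200 reads gave 2 DEGs among 265 members. Among the 42 members sharing no exonic base 22 were called, 13 higher and 9 lower. They included 3 snoRNA hosts lower, 3 miRNA hosts, 3 antisense, 7 divergent and 1 same-strand member. These are subsets or supersets of the members, so fewer or more could be called.

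Leaving out 1 library at a time gave 46 to 73 called, 20 to 30 higher, 26 to 48 lower, 1 to 2 DEGs, 6 to 10 intergenic risers and 7 to 12 speckle proteins, the 7 without si_GRB2 replicate 1, and GRB2 between -2.18 and -2.13. The second DEG was MALAT1, ENSG00000230387 or RP5-1085F17.3. The replicate numbers did not pair the libraries (correlations of same-numbered deviations 0.23, -0.09 and 0.08). With a replicate block 78 were called, 64 of them among the 67, 34 higher and 44 lower, with 10 snoRNA hosts lower. The causes were not tested.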

Other observations

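Below the read limit, 2029 further lncRNA rows were tested, of which 49 were higher and 72 lower (5.96% called, against 30.6% of all genes tested). DEGs among them numbered 28 (1.38%, against 2.52% of all genes tested), 10 higher and 18 lower. Those named here were chosen after their values were seen. UCA1, an lncRNA raised in bladder and other cancers, had 5.21, 4.43 and 5.42 CPM in si_NC and 2.30, 2.33 and 2.41 CPM in si_GRB2. The groups did not overlap and the fall was 2.14-fold (log2 fold change -1.10 ± 0.14 (SE), adjusted p = 2.29e-05), the only DEG among the lncRNAs listed for a known role. RP11-627K11.6 had 8.34, 9.26 and 8.02 CPM in si_NC and 4.45, 4.22 and 3.52 CPM in si_GRB2 (log2 fold change -1.07 ± 0.12 (SE), adjusted p = 4.33e-06). MIR9-3HG, a host of miR-9, had 7.84, 9.30 and 8.38 CPM in si_NC and 5.05, 5.35 and 5.45 CPM in si_GRB2 (log2 fold change -0.68 ± 0.11 (SE), adjusted p = 1.19e-04), and HK2-DT, beside the hexokinase gene HK2, had 7.45, 6.28 and 7.42 CPM in si_NC and 4.41, 4.44 and 4.42 CPM in si_GRB2 (log2 fold change -0.67 ± 0.12 (SE), adjusted p = 3.35e-04). Among the rises, LINC01137 had 2.60, 1.45 and 2.17 CPM in si_NC and 3.85, 3.42 and 3.56 CPM in si_GRB2 (log2 fold change 0.79 ± 0.19 (SE), adjusted p = 0.00417) and SNED1-AS1 had 0.428, 0.275 and 0.250 CPM in si_NC and 0.954, 0.838 and 0.790 CPM in si_GRB2 (log2 fold change 1.42 ± 0.33 (SE), adjusted p = 0.00325). In all of these every si_GRB2 library lay on one side of every si_NC library.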
